A study of Mus musculus with 3 samples.

Results

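Lipid-associated macrophages are named for a set of genes that macrophages express when they take up and handle large amounts of lipid. The 10 genes described here are Trem2, Gpnmb, Spp1, Fabp3, Fabp4, Fabp5, Lpl, Apoe, Cd9 and Lgals3. They were chosen by name, with earlier results of these data known, and each symbol matched 1 gene of the 55536 annotated genes in the tables. All 10 also passed the filter on low counts that left 12372 genes for the comparison of libraries. The RNA was cytosolic RNA of bone-marrow-derived macrophages, which are primary cells grown from the marrow of C57BL/6J mice. All cells had received 100 ng/ml Lipid A, the part of bacterial endotoxin that activates TLR4, for 12 h, followed by a washout of 12 h and by 100 ng/ml Lipid A for 20 min. The labels form 1 group of 3 biological replicates that trace to a single donor identifier, and they record neither sex nor age. With 1 group the values below are levels and not responses to Lipid A, and an SD is the spread between these 3 libraries, which may be partly technical.

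TREM2 is a surface receptor that binds lipids and lipoproteins and signals through the adaptor TYROBP (DAP12) and the kinase SYK. In fat tissue, atherosclerotic plaques and injured brain, macrophages and microglia with high Trem2 also express genes for lipid transport (Apoe, Lpl and the fatty acid binding proteins), for lysosomal and membrane proteins (Gpnmb, Cd9) and for secreted or matrix proteins (Spp1, Lgals3). Several of these genes are known targets of the nuclear receptors LXR and PPARγ or of the MiT/TFE factors, which regulate lysosomal genes.

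Bases before a listed start site of 4 of these genes are shown first. All 4 stretches hold matches to the searched motifs, at various distances from that site, as do some windows that are not shown. They are the 250 bases before a RefSeq start site (mouse build GRCm38.p6, 5′ to 3′ on the strand of the gene), with matches to the searched motifs in capitals. They lie at chr17:48346151-48346400 for Trem2, chr6:49036268-49036517 for Gpnmb, chr5:104434861-104435110 for Spp1 and chr4:130308488-130308737 for Fabp3, all on the plus strand.
Trem2: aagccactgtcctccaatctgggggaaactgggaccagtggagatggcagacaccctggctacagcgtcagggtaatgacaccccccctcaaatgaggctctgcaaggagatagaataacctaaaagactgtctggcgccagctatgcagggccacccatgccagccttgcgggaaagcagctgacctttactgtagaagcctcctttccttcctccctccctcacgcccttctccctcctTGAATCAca
Gpnmb: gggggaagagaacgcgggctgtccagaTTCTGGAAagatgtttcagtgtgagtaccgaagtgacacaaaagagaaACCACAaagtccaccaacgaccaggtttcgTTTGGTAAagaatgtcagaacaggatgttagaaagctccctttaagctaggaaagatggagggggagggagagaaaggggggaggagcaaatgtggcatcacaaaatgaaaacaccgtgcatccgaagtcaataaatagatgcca
Spp1: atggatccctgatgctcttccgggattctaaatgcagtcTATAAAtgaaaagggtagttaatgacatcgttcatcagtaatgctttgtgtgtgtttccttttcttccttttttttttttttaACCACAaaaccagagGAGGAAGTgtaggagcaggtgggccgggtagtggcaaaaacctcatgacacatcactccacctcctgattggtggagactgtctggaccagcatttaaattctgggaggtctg
Fabp3: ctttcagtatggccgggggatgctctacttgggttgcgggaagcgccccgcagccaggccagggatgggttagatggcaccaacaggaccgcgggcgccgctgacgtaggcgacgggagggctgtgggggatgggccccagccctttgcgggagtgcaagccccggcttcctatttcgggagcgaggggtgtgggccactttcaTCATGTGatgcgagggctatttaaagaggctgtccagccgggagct

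In Trem2 the capitals mark an AP-1 motif (TGANTCA), 9 to 3 bases before the start site, which is also the first base of the transcript Trem2-201. In Gpnmb they mark 2 C/EBP motifs (TTNCNNAA), 223 to 216 and 145 to 138 bases before the start site. Between these lies 1 RUNX motif (TGTGGT, here on the other strand), 175 to 170 bases before the start site. The capitals in Spp1 mark a TATA motif (TATAAA), a RUNX motif on the other strand and an ETS motif of the PU.1 type (GAGGAAGT). This TATA match lies 211 to 206 bases before the start site. The capitals in Fabp3 are an M-box (TCATGTG), the kind of element that MITF is known to bind. The start site used for Fabp3 lies 143 bases downstream of the first base of its transcript Fabp3-201. The M-box, 46 to 40 bases before that site, therefore lies within the span of the annotated transcript and not before the gene. These matches are descriptions of letters and not measured binding sites. Searched on both strands, AP-1 was present in 6.75% of the 32851 promoter windows, C/EBP in 36.8%, RUNX in 14%, TATA in 12.4%, the ETS motif in 2.44% and the M-box in 3.25%. The RUNX and ETS matches of Spp1 do not overlap each other, nor do any of the other matches shown. The table held 10 windows for 7 of the 10 genes, and Fabp4, Fabp5 and Lpl had no entry. Among the motifs searched, CRE, CLEAR E-box, GAS, NF-kB, DR1 (PPAR) and DR4 (LXR) matched 0 of these 7 genes. In the same order they were present in 1.55%, 6.02%, 7.02%, 0.356%, 0.0335% and 0.0152% of all windows. Among the windows not shown, those of Lgals3 and Cd9 held none of the 12 motifs, and neither did the first start of Apoe. A second start of Spp1 held 2 C/EBP matches and a second start of Apoe held overlapping TATA matches.

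The genes ran from among the most abundant messages of these cells down to Cd9 at a few TPM. They are set out in 3 ranges of mean level, with bounds chosen at 100 and 1000 TPM. Levels are given as TPM, which divides reads by transcript length and scales each library to the same sum, so that genes can be set side by side. Gpnmb, Fabp5 and Apoe had means above 1000 TPM. Lgals3, Spp1, Trem2 and Lpl lay between 100 and 1000 TPM, and Fabp4, Fabp3 and Cd9 lay below 100 TPM. Single libraries crossed these bounds for Fabp5 (779 TPM in replicate 3) and Apoe (990 TPM in replicate 2). So did Trem2 (82.7 TPM in replicate 3) and Lpl (88.7 TPM in replicate 1). All 10 genes reached 1 TPM in every library, against 41.4% of the 21951 protein-coding genes. The same share is the background for the counts of listed genes below. All except Cd9 reached 10 TPM in every library, against 16.9% of protein-coding genes. The median of the 10 genes was 288, 332 and 200 TPM in replicates 1, 2 and 3, and the median of all protein-coding genes was 0.170, 0.140 and 0.15 TPM. Together the 10 genes held 1.75%, 2.09% and 1.59% of the TPM of protein-coding genes. In such bulk samples, fewer cells with a message and less message per cell cannot be told apart.

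**Figure D1:**
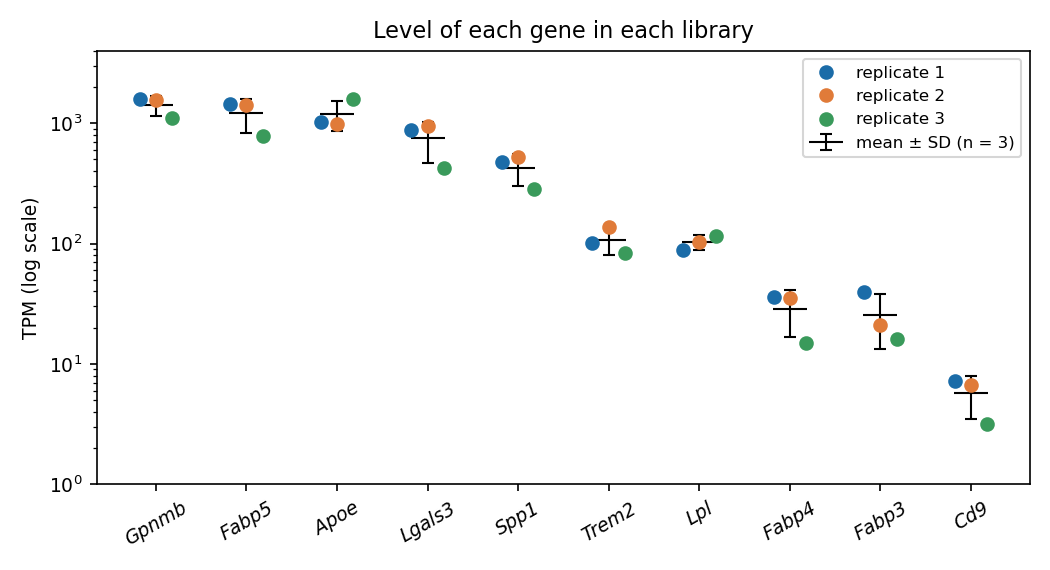
TPM on a log scale (y axis) of the 10 genes (x axis, ordered by mean), with 1 point per library and the mean ± SD over 3 libraries in black. Replicate 3 is the lowest point for 8 genes, while for Apoe and Lpl it is the highest.

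Trem2 (ENSMUSG00000023992.14, chr17:48346401-48354147, plus strand), which encodes the TREM2 receptor, was well expressed but not among the highest of the set. It stood at 102, 138 and 82.7 TPM in replicates 1, 2 and 3, from 4523, 9723 and 6178 expected counts (108 ± 28.1 TPM, SD, n = 3). Replicate 2 was the highest library and replicate 3 the lowest. By its mean Trem2 ranked 414 of 21951 protein-coding genes. Its adaptor gene Tyrobp was at 745, 682 and 521 TPM, so it was also lowest in replicate 3. All 12 genes listed for TREM2 signalling and shedding reached 1 TPM in every library. Besides Tyrobp, the highest were the adaptor gene Grb2 (150 ± 19.0 TPM) and the phosphatase gene Ptpn6 (117 ± 21.9 TPM), and the lowest was the exchange factor gene Sos1 (4.08 ± 0.80 TPM). The other receptor genes of the TREM cluster on chromosome 17 were lower. Treml2 was at 14.3 ± 3.97 TPM, Treml4 at 0.237 ± 0.0651 TPM and Trem1, known as an amplifier of inflammatory signals, at 0.0200 ± 0.010 TPM. Only Trem2 and Treml2 of the 6 cluster genes reached 1 TPM in every library.

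Trem2 RNA was mainly 2 transcripts with different last parts of the coding sequence. Trem2-201 held 76.8%, 76.7% and 78.1% of the gene's abundance and Trem2-202 held 21.3%, 22.5% and 20.0%, as deposited. In the second transcript quantification the shares were 73.7%, 75.3% and 77.3% against 21.8%, 22.5% and 19.8%. The shares differed little between libraries, although the level of the gene differed by up to 1.72-fold. Both transcripts have 5 exons and the same end of exon 3, but exon 4 of Trem2-202 begins 55 bases earlier (chr17:48351691-48351745, build mm10, plus strand). Trem2-202 also starts 87 bases farther downstream. The added bases are shown in capitals because they change the coding sequence, with 20 bases of exon 3 before them and 20 bases of the shared exon 4 after them.
Trem2-202: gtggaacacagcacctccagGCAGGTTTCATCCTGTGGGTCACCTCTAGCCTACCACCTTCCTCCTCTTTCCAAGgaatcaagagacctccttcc
Trem2-201: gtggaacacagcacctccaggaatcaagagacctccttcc

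Since 55 is not a multiple of 3, the reading frame after the added bases differs. The coding sequence without its stop codon is 681 bases in Trem2-201 and 747 bases in Trem2-202.

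Gpnmb (ENSMUSG00000029816.10, chr6:49036546-49070929, plus strand) encodes a glycoprotein of lysosomal and surface membranes and had the highest mean of the set. It was at 1597, 1547 and 1114 TPM (1419 ± 266 TPM, SD, n = 3), from 260474, 411446 and 309457 expected counts. Replicates 1 and 2 were close to each other and replicate 3 was lower. Gpnmb ranked 14 of all protein-coding genes. The transcript Gpnmb-201 held 87.1%, 89.2% and 90.8% of it. Gpnmb-203, which ends in another last exon 11.9 kb farther downstream and has 1578 instead of 1722 coding bases, held 10.1%, 9.37% and 7.87%. The share of Gpnmb-203 depended on the quantification, and in the second it was 18.7%, 21.7% and 14.5%.

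Cd9 (ENSMUSG00000030342.8, chr6:125460266-125494791, minus strand), a tetraspanin gene whose product organises membrane proteins, was by far the lowest of the set. Its levels were 7.21, 6.70 and 3.18 TPM (5.70 ± 2.19 TPM, SD, n = 3). They came from 359, 539 and 266 expected counts, for which the exact 95% Poisson intervals are 6.48 to 8.0, 6.15 to 7.29 and 2.81 to 3.59 TPM, covering counting error only. The interval of replicate 3 does not overlap those of the other libraries. Gpnmb and Cd9 differed 249-fold in mean TPM, and Cd9 lay above 74.0% of protein-coding genes. Other tetraspanin genes were much higher, and 11 of the 12 genes listed for tetraspanins and CD9 partners reached 1 TPM in every library. Cd63 was at 255 ± 19.5 TPM, Cd53 at 178 ± 32 TPM and Tspan3 at 68.5 ± 33.0 TPM, while the CD9 partner gene Ptgfrn was lowest at 0.0633 ± 0.0153 TPM. Cd9-201 held at least 99.7% of the gene in each library. Cd9 overlaps the antisense gene Gm28809 (0.220 TPM on average), and since the strand setting of the counting is not given, its reads could include some of that gene.

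Spp1 (ENSMUSG00000029304.14, chr5:104435118-104441050, plus strand) encodes osteopontin, a secreted protein that binds integrins and CD44. It was at 474, 526 and 284 TPM (428 ± 127 TPM, SD, n = 3), lowest in replicate 3. Spp1-201 held 95.6% to 96.1% of it in the 3 libraries. The annotation places the short transcript Gm42793 inside Spp1 on the same strand, at 0.980, 0.0900 and 0.15 TPM. Of 9 listed binding partner genes of osteopontin and GPNMB, 7 reached 1 TPM in every library. The integrin gene Itgb1 (85.2 ± 11.3 TPM), the syndecan gene Sdc4 (45.1 ± 15.5 TPM) and Cd44 (29.4 ± 3.61 TPM) were highest. Itgb3, the partner of the αv integrin subunit in the classical osteopontin receptor, was lowest at 0.277 ± 0.101 TPM.

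Lgals3 (ENSMUSG00000050335.17, chr14:47367751-47386160, plus strand) encodes galectin-3, which binds galactosides on glycoproteins and damaged endosomes. It was at 886, 939 and 422 TPM (749 ± 284 TPM, SD, n = 3). Replicate 3 was 2.50-fold below replicate 2 on the scaled counts, the largest ratio between libraries in the set. The make-up of Lgals3 by transcript differed between the quantifications. Lgals3-203 held 59.7%, 38.2% and 64.8% and Lgals3-204 held 31.1%, 50.9% and 25.8%, but in the second quantification the shares were 76.9%, 80.4% and 80.8% against 15%, 13.8% and 12.2%. These transcripts and Lgals3-201 have the same 792 coding bases, and together they held 97.6%, 98.3% and 98.0%. Of 9 genes listed for galectins and a galectin-binding protein, 5 were at 1 TPM or more in each library. After Lgals3 came Lgals3bp, which encodes a secreted galectin-binding protein (669 ± 126 TPM), and Lgals1 (273 ± 71.9 TPM). Lgals7 and Lgals12 had 0 counts, which allows at most 0.251 and 0.0253 TPM.

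The fatty acid binding proteins carry fatty acids inside cells, and of the 10 genes of this family the 3 of the set reached 1 TPM in every library. Fabp5 (ENSMUSG00000027533.10, chr3:10012548-10016607, plus strand) was at 1449, 1412 and 779 TPM (1213 ± 377 TPM, SD, n = 3). Fabp4 (ENSMUSG00000062515.3, chr3:10204088-10208576, minus strand), best known from adipocytes, was at 36.2, 35.4 and 14.8 TPM (28.8 ± 12.2 TPM). Both were similar in replicates 1 and 2 and lower in replicate 3. They lie 187 kb apart on chromosome 3, with the coding genes Gm9833, Pmp2, Gm37389 and Fabp9 between them.

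Fabp3 (ENSMUSG00000028773.8, chr4:130308595-130315463, plus strand), best known from heart muscle, was at 39.7, 20.9 and 16.2 TPM (25.6 ± 12.4 TPM, SD, n = 3). It differed from the other 2 family members in that replicate 1 stood apart as high, rather than replicate 3 alone as low. The end of Fabp3 overlaps Zcchc17 on the opposite strand, which was at 5.90 TPM on average. The other 7 genes of the family did not reach 1 TPM in any library. Fabp7 was the highest of these at 0.0467 ± 0.0503 TPM, and Fabp6 and Fabp9 had 0 counts, which allows at most 0.243 and 0.177 TPM. The leading transcripts Fabp3-201, Fabp4-201 and Fabp5-201 held at least 97.8% of their genes.

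Apoe (ENSMUSG00000002985.16, chr7:19696109-19699188, minus strand) encodes the apolipoprotein that macrophages secrete with cholesterol. It was at 1032, 990 and 1590 TPM (1204 ± 335 TPM, SD, n = 3), from 42197, 67002 and 110286 expected counts. Replicate 3 was the highest library, opposite to the 8 genes above. Apoe-209 held 62.4%, 66.4% and 71.9% and Apoe-206, with the same 933 coding bases, 12.6%, 13.1% and 8.43%. Apoe-202, which is annotated without a coding sequence and lacks 386 bases inside the last exon, held 24.4%, 20.0% and 19.1%. In the second quantification Apoe-202 held 30.1%, 26.2% and 21.5%. Of 11 listed cluster and receptor genes of Apoe, 7 reached 1 TPM in every library. The receptor gene Lrp1 (88.7 ± 17.9 TPM) and the cholesterol exporter genes Abcg1 (71.7 ± 7.38 TPM) and Abca1 (58.7 ± 9.94 TPM) were highest, and the receptor gene Vldlr was lowest at 0.00667 ± 0.0115 TPM.

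Lpl (ENSMUSG00000015568.16, chr8:68880491-68907448, plus strand) encodes lipoprotein lipase, which releases fatty acids from lipoproteins. It was at 88.7, 104 and 116 TPM (103 ± 13.8 TPM, SD, n = 3) and was the least variable of the 10 genes on the scaled counts. Replicate 1 was lowest and replicate 3 highest, but in the second quantification replicate 2 was highest, with 42.9, 57.2 and 49.8 TPM. Lpl-201 held at least 99.3% in each library. Few of the 10 listed partner genes of LPL were expressed, and 4 of them reached 1 TPM in every library. The protease gene Furin (16.5 ± 1.39 TPM), the activator gene Apoc2 (13.4 ± 2.73 TPM) and the maturation factor gene Lmf1 (3.49 ± 0.235 TPM) were highest. Gpihbp1, whose product anchors LPL on capillary endothelium, had 0 counts, which allows at most 0.0852 TPM. So had Angptl8, Apoc3, Apoa5 and Pcsk6.

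The order of the genes by level was largely shared by the libraries. Of the 45 pairs of genes, 41 had the same order in every library and 4 turned. Gpnmb was first in replicates 1 and 2, and Apoe was first in replicate 3. Among neighbours in the order by mean, Fabp5 and Apoe differed by -0.01 ± 0.88 log2 units, Trem2 and Lpl by 0.04 ± 0.47 and Fabp4 and Fabp3 by 0.16 ± 0.52 (SD, n = 3), and each of these pairs turned in at least 1 library. Apoe and Lgals3 kept their order in all libraries, but their difference of 0.74 ± 1.02 was also within the spread, and in the second quantification they kept it in 2 of 3 libraries. The other 5 neighbouring pairs differed by more than their SD and had 1 order in all libraries.

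Each of the 10 genes varied more between libraries than the median gene. To compare libraries, counts were scaled by TMM to CPM (counts relative to the size of the library), which is per gene and not per length. Against counting noise alone, by edgeR's likelihood ratio test at dispersion 0 with Benjamini-Hochberg adjustment, 10 of 10 genes differed between the libraries, but so did 71.1% of all genes tested. That test compares these libraries and not conditions, and its p-values depend on the number of reads as well as on the size of a difference. The least significant was Cd9, with an adjusted p of 4.0e-30 in edgeR, followed by Fabp3 with 2.8e-71. The differences of Cd9 and Fabp4 rested on replicate 3, since replicate 2 was at 1.05-fold and 1.02-fold of replicate 1 by scaled CPM. For the other 8 genes that ratio ran from 0.602 for Fabp3 to 1.51 for Trem2. The SD of the log2 scaled CPM over the 3 libraries had a median of 0.49 over the 10 genes and 0.18 over all genes tested. It ran from 0.26 for Lpl to 0.72 for Fabp4, with 0.64 for Cd9, so each of the 10 genes was above the median of all genes. The highest library exceeded the lowest by more than 1.5-fold in 8 of the 10 genes, against 24.8% of all genes tested, with Gpnmb and Lpl below that.

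**Figure D2:**
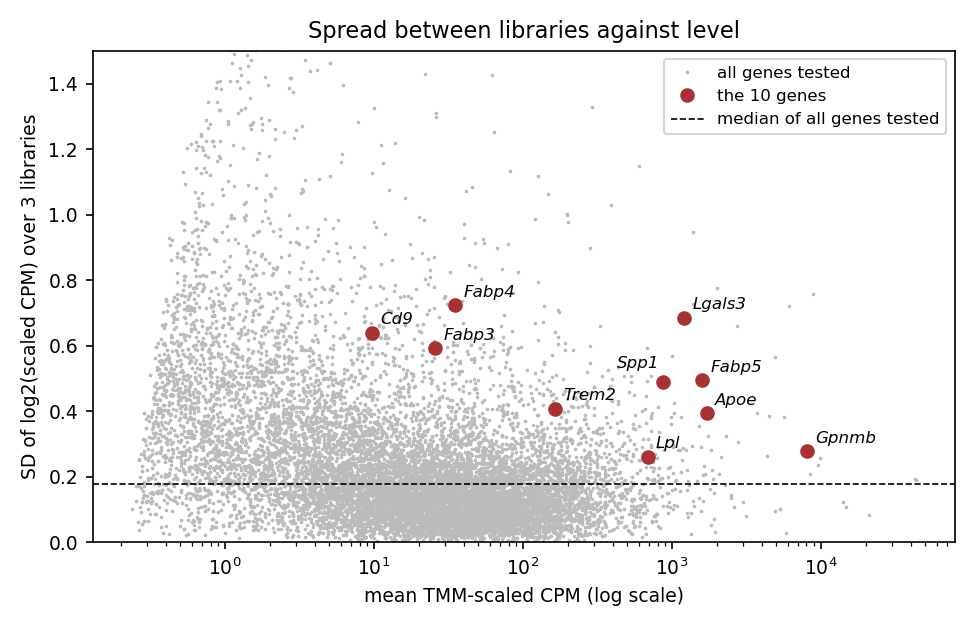
SD of log2 scaled CPM over 3 libraries (y axis) against mean scaled CPM on a log scale (x axis) for all genes tested in grey and the 10 genes in red. The dashed line is the median of all genes tested (0.18), which all 10 genes exceed, and genes with an SD above 1.5 lie outside the plot.

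Replicate 3 was the lowest library for 8 of the 10 genes. By scaled CPM 32.3% of all genes tested were lowest in that library. The median ratio of replicate 3 to replicate 1 was -0.71 log2 units over the 10 genes and 0.00 over all genes tested. Relative to replicate 2 the medians were -0.85 and -0.01. Between replicates 2 and 1 the median of the 10 genes was 0.15, and that of all genes was 0.03. Replicate 3 lay more than 1.5-fold below each of the other libraries in 5 genes, namely Spp1, Fabp4, Fabp5, Cd9 and Lgals3, against 2.59% of all genes tested. For Fabp4, scaled CPM was 42.8, 43.6 and 18.1 in replicates 1, 2 and 3, and for Lgals3 it was 1305, 1669 and 666. In Fabp4 the other libraries lay close together, in Lgals3 they differed 1.28-fold, and in both genes replicate 3 was below each of them. For Trem2 scaled CPM was 145, 219 and 128, so that replicate 3 was 1.14-fold below replicate 1 and 1.72-fold below replicate 2. Trem2 was nearer to replicate 1 in replicate 3 than the other 7 genes that were lowest there.

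**Figure D3:**
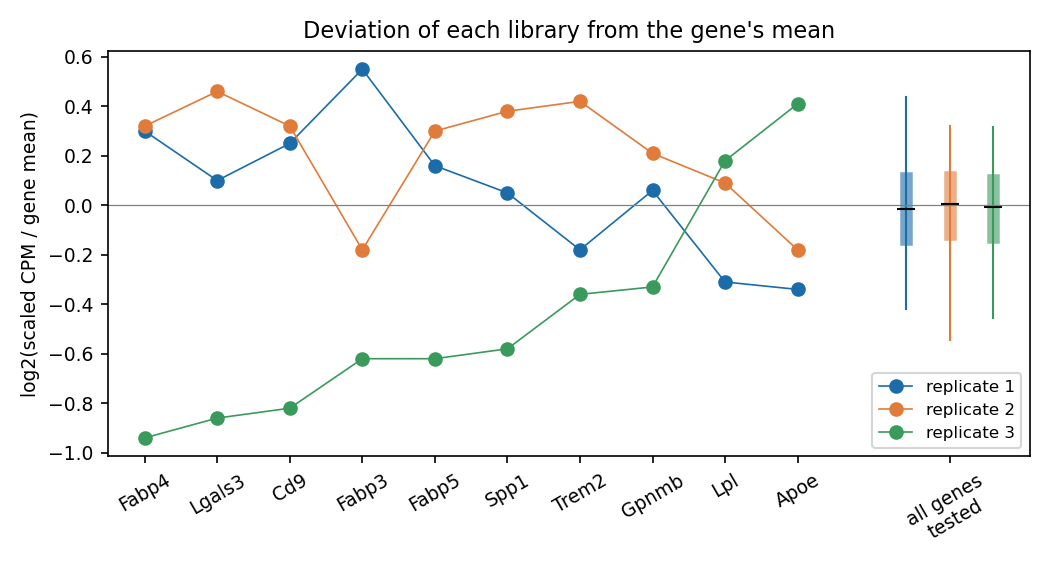
Deviation of each library from the gene's mean, as log2 of scaled CPM over the mean (y axis), for the 10 genes ordered by replicate 3 (x axis). At the right, black ticks mark the median of all genes tested, thick bars the middle 50% and thin lines the middle 90% in each library. Replicate 3 runs from -0.94 for Fabp4 to 0.41 for Apoe, and for 8 genes it lies below both other libraries.

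Apoe and Lpl went the other way, 2 of 10 genes highest in replicate 3, against 32.0% of all genes tested. Apoe was at 1356, 1512 and 2279 scaled CPM, so replicate 3 exceeded replicate 1 by 1.68-fold and replicate 2 by 1.51-fold. Lpl was at 552, 728 and 776 scaled CPM, where replicates 2 and 3 were close. By scaled CPM replicate 2 was the highest library for 7 of the 10 genes, against 35.1% of all genes tested, but by TPM it was so for 3, namely Trem2, Spp1 and Lgals3, and replicate 1 for 5.

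Other genes were also read by this measure. Of the 16 other lipid-associated macrophage genes, 10 were lowest in replicate 3, and of the 12 TREM2 signalling genes 7 were, against 32.3% of all genes tested. Leaving out the 10 genes, so were 6 of 11 tetraspanin and CD9 partner genes tested, 3 of 4 genes on the galectin list and 6 of 13 lipid storage genes. The same held for 3 of 9 binding partner genes of osteopontin and GPNMB, 2 of 4 LPL partner genes and 1 of 2 TREM cluster genes. Among the Apoe cluster and receptor genes 2 of 9 tested were, and among the transcription factors listed for lipid and lysosome genes 4 of 15. These lists overlap, so Cd63, Lgals1, Plin2 and Lipa, all lowest in replicate 3, are each counted under 2 of them. Of the 8 macrophage markers 2 were lowest there, and their summed level was 5413, 4617 and 4813 TPM in replicates 1, 2 and 3. Expected counts totalled 32055937, 43616634 and 47864978, and the small cytosolic RNA 7SL took 59.3%, 62.9% and 55.5% of all TPM. Protein-coding genes took 32.7%, 27.3% and 27.8% of all TPM, and summed levels of markers are not corrected for that share. The part of depth and of 7SL in the lower values of replicate 3 was not tested.

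Most other genes known from lipid-associated macrophages were expressed too. At 1 TPM or more in each library were 15 of the 16 other genes on that list, against 41.4% of protein-coding genes. All 8 macrophage markers reached it too, and Cd68 is on both lists. The median of the 16 genes was 180, 186 and 156 TPM in replicates 1, 2 and 3. The cathepsin genes Ctsd (2701 ± 376 TPM) and Ctsb (2078 ± 450 TPM) and the lysosomal membrane gene Cd68 (608 ± 168 TPM) were highest. The Ctsd value is uncertain because it shares its strand and span with Gm49369, which was at 355 TPM on average. Itgax, which encodes CD11c, was lowest at 0.290 ± 0.110 TPM and was the list's only gene below 1 TPM. Of 13 genes for lipid storage and release, 12 reached 1 TPM in every library. The lipid droplet gene Plin2 (198 ± 16.4 TPM), the lysosomal acid lipase gene Lipa (154 ± 8.80 TPM) and the cholesterol esterification gene Soat1 (148 ± 8.69 TPM) led it, and the triglyceride synthesis gene Dgat2 was lowest at 0.147 ± 0.0451 TPM. Of 16 transcription factor genes 14 did so, led by Maf (87.2 ± 9.36 TPM), Nr1h3, which encodes LXRα (32.3 ± 12.1 TPM), and Tfe3 (30.5 ± 2.27 TPM). Ppara had 0 counts, which allows at most 0.0469 TPM.

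**Figure D4:**
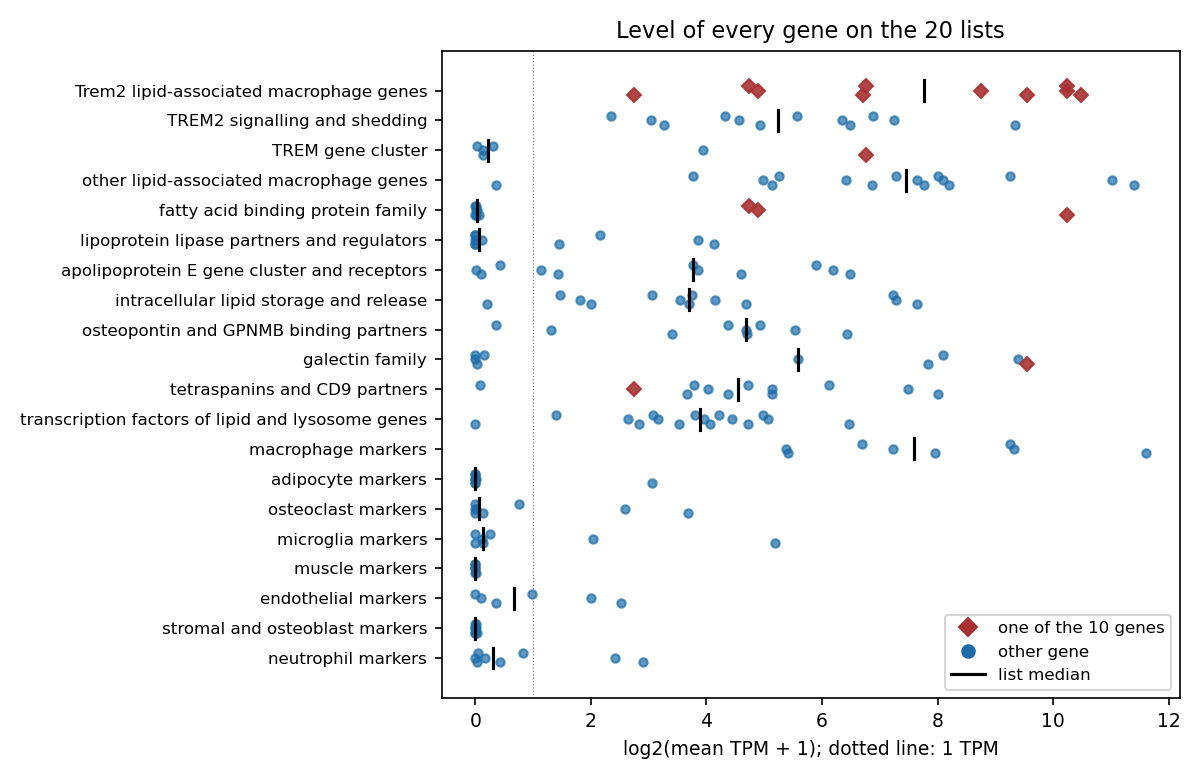
Level of every gene on the 20 lists, as log2(mean TPM + 1) over 3 libraries (x axis), with 1 row per list (y axis), the 10 genes as red diamonds and list medians as black bars. Genes right of the dotted line have a mean above 1 TPM, and most markers of other cell types lie left of it.

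Several of the 10 genes are also known from other cells, so markers of those cells were read beside them. The 8 macrophage markers all reached 1 TPM in every library, led by Lyz2 (3120 ± 176 TPM), Adgre1 (641 ± 148 TPM) and Cd68, with Mertk lowest at 40.5 ± 6.67 TPM. Of 8 adipocyte markers, beside which Fabp4 and Lpl can be read, only Lipe reached 1 TPM in every library (7.30 ± 1.22 TPM). Cfd followed at 0.010 ± 0.0173 TPM, and the other 6, Adipoq and Plin1 included, had 0 counts, which allows Adipoq at most 0.0878 TPM. The adipocyte list summed to 7.70, 5.94 and 8.30 TPM. No muscle marker, read beside Fabp3, reached 1 TPM, and the highest was Ckm at 0.00667 ± 0.00577 TPM.

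Osteoclasts are rich in Gpnmb and Spp1, and 2 of 8 osteoclast markers reached 1 TPM in every library. Acp5 was at 11.8 ± 2.54 TPM and Atp6v0d2 at 4.99 ± 0.920 TPM, with Ctsk next at 0.687 ± 0.229 TPM and Oscar at 0 counts, which allows at most 0.0488 TPM. The list summed to 16.8, 15.8 and 20.0 TPM. No stromal or osteoblast marker reached 1 TPM in any library, and Dcn was highest at 0.0267 ± 0.0252 TPM. Among microglia markers P2ry12 was at 3.12 ± 0.460 TPM and Tmem119 at 0.193 ± 0.112 TPM, while Sall1 and Sall3 had 0 counts, which allows at most 0.0119 and 0.0110 TPM.

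Among 6 endothelial markers Kdr was at 9.26, 3.09 and 1.97 TPM and Vwf at 4.47, 3.05 and 1.56 TPM, while Pecam1 was at 1.12, 0.510 and 1.32 TPM and Tek was listed at 0 TPM in each library. The 6 markers summed to 15.3, 7.0 and 5.14 TPM, lowest in replicate 3, while of the 4 that were tested 2 were lowest there. The 8 neutrophil markers summed to 8.47, 10.7 and 17.2 TPM and were highest in replicate 3, led by S100a9 (6.46 ± 3.16 TPM), S100a8 (4.34 ± 0.868 TPM) and Ngp (0.770 ± 0.459 TPM), with Ly6g at 0 counts, which allows at most 0.146 TPM. The part of these cell types in the values of the 10 genes was not tested.

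The plot of transcript shares sets both quantifications side by side for the 4 genes with more than 1 transcript at 10% or more. Trem2 had nearly the same make-up in all 6 columns, and Lgals3 had the largest difference between quantifications.

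**Figure D5:**
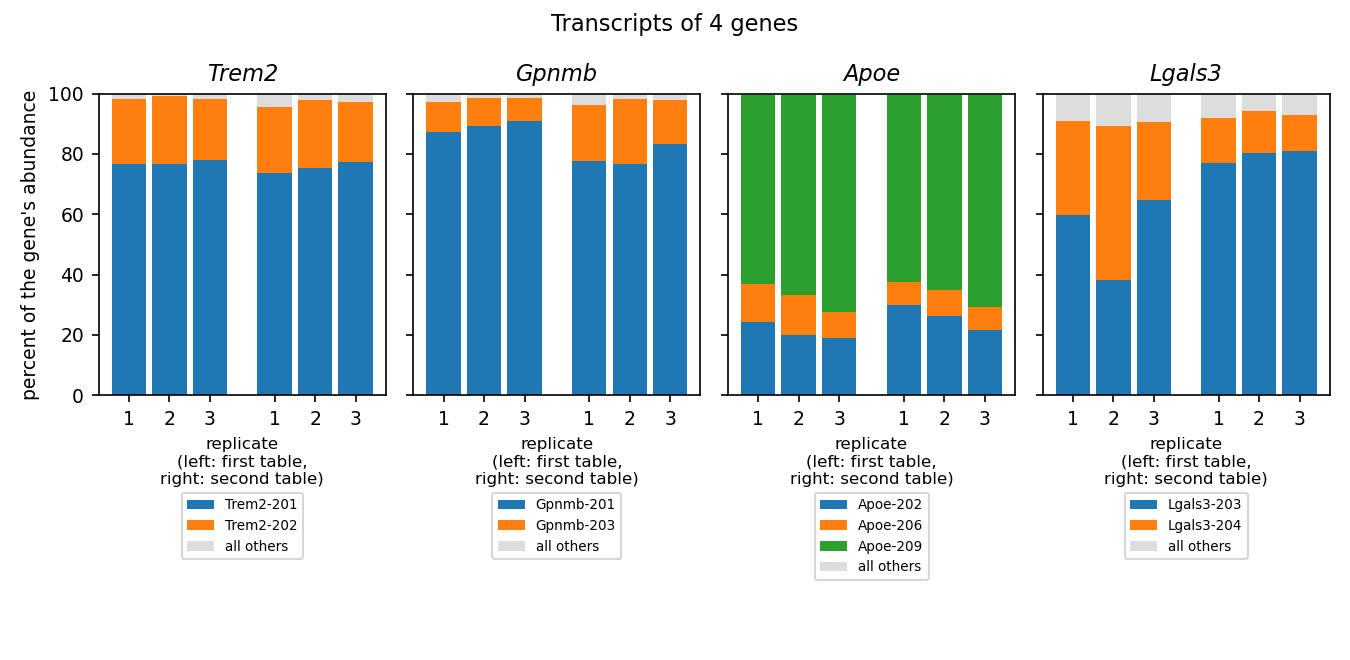
Percent of each gene's abundance (y axis) held by each transcript at 10% or more in any library, by replicate (x axis), with the first quantification in the left 3 columns and the second in the right 3. Trem2-202 holds 19.8% to 22.5% throughout, while Lgals3-204 runs from 12.2% to 50.9%.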

How the data were processed

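The data are 3 libraries of total RNA with ribosomal RNA depleted. Per the file headers, the authors deposited for each library tables of genes and of transcripts with the columns that RSEM writes, and a further table of transcripts with the columns that kallisto writes. The build is mm10 and the annotation GENCODE M21, per the deposited text. The sources used here do not give programs, versions or strand. The authors' gene tables hold expected counts (estimated reads, not whole numbers) and TPM. Their deposited transcript tables hold TPM and, for each transcript, its percent of the gene, and the second tables hold estimated counts and TPM, summed per gene here. Estimated counts split reads that fit several transcripts, so shares of transcripts with like sequence are less certain than gene levels.

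Rounded expected counts went into edgeR 4.0.16 (R 4.3.3, TMM, filterByExpr, likelihood ratio test at dispersion 0, adjusted p under 0.05) over all 12372 genes passing the filter. With 1 level per library no residual degrees of freedom are left, so edgeR's quasi-likelihood test could not be used. The p-values measure departure from counting noise between these libraries only, and not the size of their spread. The common biological coefficient of variation was 0.190. Other steps ran in Python 3.11.15 (pandas 2.3.3, numpy 2.4.6, scipy 1.17.1). The test was tested on simulated data. Intervals are exact Poisson (95%), a count of 0 is taken to allow 3 counts, and both cover counting error only. A member's rank and the shares of genes at 1 or 10 TPM are over protein-coding genes.

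The members and the 20 lists (180 symbols, all matched) were chosen with earlier results of these data known. Named were every member, the 3 highest and the lowest gene of each list (of a list with no gene at 1 TPM in every library, the highest) and transcripts at 10% or more in any library. A few further genes, such as Cfd, Fabp6, Lgals12, Angptl8, Adipoq, Ngp and Sall3, were named after their values were seen. For 1 listed gene the level is not reported here. Genes were not ranked by likeness, since 3 libraries of 1 group give no pattern across conditions. Alternatives were the second tables, TPM rescaled to protein-coding genes, posterior mean TPM, RLE size factors, no filter, other pseudocounts, 10 TPM as the minimum, and leaving out each replicate.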

Additional observations from a re-analysis of the deposited data

How the results depend on the processing

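No paired analysis was possible because the series holds 1 group. In the order of the 10 genes by mean, leaving out single replicates kept between 4 and 10 genes in place. The lowest number came without replicate 2, where Fabp5 and Apoe, Trem2 and Lpl, and Fabp4 and Fabp3 changed places. The mean TPM of all 10 genes moved by more than 1 SD in the second quantification (0.476 to 0.530 times the value given) and when rescaled to protein-coding genes (3.33 to 3.46 times), so a level holds only within its own table. Posterior means (0.981 to 0.995 times) and leaving out single replicates (0.724 to 1.24 times) moved none of them so far. The median SD of log2 stayed at 0.49 with RLE size factors and with pseudocounts of 1 and 0.1 on TPM. The number lowest in replicate 3 was 8 of 10 by TPM, rescaled TPM, RLE-scaled counts and the second quantification, alternatives chosen after seeing the data. Without replicate 3, Cd9 and Fabp4 differed little between the libraries left, with replicate 2 at 1.05-fold and 1.02-fold of replicate 1. Transcripts at 10% or more numbered 15, and 14 in the second quantification. List entries at 1 TPM in every library numbered 119 and 113, with a gene on 2 lists counted under both. With 1 group and 1 donor identifier, no value here can be set against untreated cells. Depth limits Cd9 most, with 266 counts in replicate 3.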
